A study of Homo sapiens with 6 samples.

Results

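The melanocyte lineage and pigment genes examined here are the 10 genes MITF, SOX10, PMEL, MLANA, TYR, TYRP1, DCT, PAX3, TFAP2A and EDNRB, picked by symbol from the 47432 genes that each table lists. Their RNA was sequenced in the established human melanoma line LOX-IMVI, which expresses the nuclear co-regulator IκBζ without a stimulus. All cells had been transduced with a lentiviral short hairpin RNA (shRNA) vector and selected with puromycin, either with a control vector (shCtrl) or with a hairpin against NFKBIZ, the gene for IκBζ (shNFKBIZ), and there were 3 libraries from independent experiments in each group. A single hairpin was used, so the loss of NFKBIZ and any other effect of that hairpin cannot be told apart.

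Melanocytes arise from the neural crest. The transcription factors PAX3 and SOX10 switch on MITF, the master regulator of the lineage, and MITF in turn binds E-box sequences of the pigment genes. TYR, TYRP1 and DCT encode the enzymes of melanin synthesis, PMEL builds the fibrils of the melanosome on which melanin is laid down, and MLANA is a melanosomal protein used as a diagnostic marker of melanoma. TFAP2A is an AP-2 transcription factor of the neural crest and its derivatives, and EDNRB is the endothelin receptor that guides melanocyte precursors. Melanoma cells can lose this program and take up a dedifferentiated state with little pigment.

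The libraries held between 22264473 and 24624839 total exon reads. Correlations of log2 CPM (read counts scaled to library size) were 0.997 within groups and 0.975 to 0.978 between groups. NFKBIZ itself was 44.5 ± 4.12 TPM (transcript abundance per length and library, SD, n = 3) in the control cells. In shNFKBIZ cells its level was 13.7 ± 0.362 TPM, which is 3.43-fold lower (log2 fold change -1.78, SE 0.0581, adjusted P 7.2e-17, quasi-likelihood test of edgeR).

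Of the 10 lineage genes, 4 were expressed, taken as a mean of at least 1 TPM in either group, and these were TFAP2A, PAX3, EDNRB and MITF. A further 3, PMEL, TYRP1 and DCT, were detected at a low level. The remaining 3, TYR, MLANA and SOX10, were at or under the floor of 3 summed reads per group. Thus no pigment enzyme and no melanosomal structure gene reached the level set for expression in either group. With a limit of 0.5 TPM the same 4 genes were expressed, and with a limit of 5 TPM only TFAP2A and PAX3 were.

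SOX10 (chromosome 22) had 0 exon reads in all 6 libraries, and it had 0 intron reads as well. A count of 0 allows a level of up to 0.0338 TPM in shCtrl and 0.0354 TPM in shNFKBIZ cells. These limits, and those of MLANA below, stand for 3 summed reads per group. They are close to a one-sided 95% limit and cover counting error only. POLR2F, which overlaps SOX10 on the other strand, had 2102 summed exon reads in shCtrl. MLANA (chromosome 9) also had 0 exon reads in all libraries, which allows up to 0.0544 TPM in shCtrl and 0.0570 TPM in shNFKBIZ cells, and 1 intron read in each group. TYR (chromosome 11), the rate-limiting enzyme of melanin synthesis, had 0 exon reads in shCtrl and 1 in shNFKBIZ cells. No fold change is given for these 3 genes.

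PMEL (chromosome 12, 55954105 to 55973317) showed 11, 5 and 4 reads over exons in the shCtrl libraries and 4, 5 and 1 in the shNFKBIZ libraries. The groups overlapped. The ratio of summed reads, shNFKBIZ over shCtrl and per total exon reads, was 0.527 (exact 95% interval 0.220 to 1.18, counting error only), an interval that includes no change at these few reads. Of all PMEL gene reads 65.5% were intron reads, while the share over all genes was 7.16% to 8.15% per library. CDK2, which shares 6009 bases with PMEL on the opposite strand, had 7399 summed exon reads in shCtrl, and strand was not used in the counting. The source of the PMEL reads was not tested.

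In the shCtrl libraries TYRP1 had 3, 3 and 2 exon reads, against 2, 4 and 0 in the shNFKBIZ libraries. DCT counts were 2, 1 and 2 against 1, 1 and 1. LURAP1L-AS1, a noncoding gene opposite TYRP1, had 211 and 283 summed exon reads. For TYRP1 the ratio was 0.790 (exact 95% interval 0.226 to 2.60), and for DCT it was 0.632 (exact 95% interval 0.0982 to 3.25). Both intervals include no change. Reads that cross an exon-exon junction mark spliced RNA, and they made up 8 of the 14 exon reads of TYRP1, 5 of the 30 of PMEL and 1 of the 8 of DCT, while 28.8% of the exon reads of all genes crossed a junction. Spliced TYRP1 was thus present at a trace level, and all TYRP1 exon reads together gave 0.116 ± 0.0199 TPM (SD, n = 3) in shCtrl cells.

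**Figure D1:**
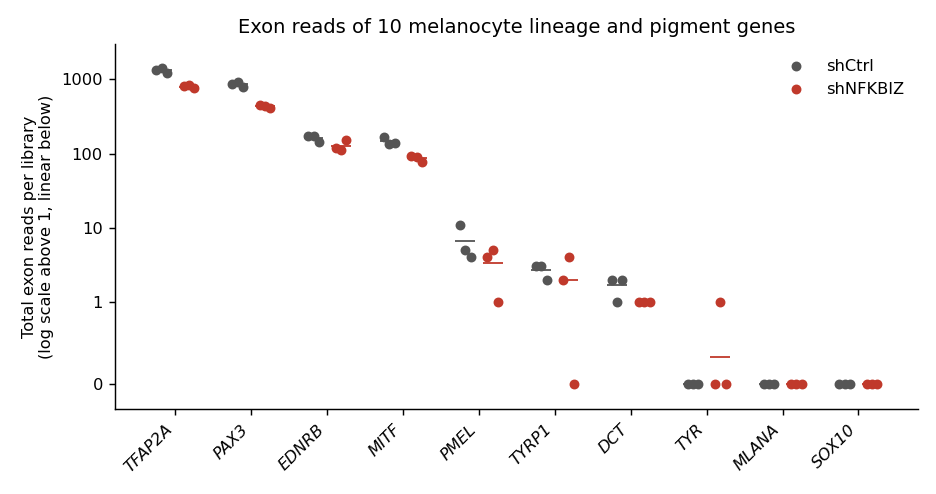
Total exon reads per library (y axis, log scale above 1 and linear below) of the 10 lineage genes (x axis) in 3 shCtrl and 3 shNFKBIZ libraries, with points for libraries and short lines for group means. TFAP2A, PAX3, EDNRB and MITF lie at 76 reads or more in every library, PMEL, TYRP1 and DCT at 11 or fewer, and MLANA and SOX10 at 0.

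The promoters of the lineage genes were searched for short sequences known as binding motifs of MITF and related factors. RefSeq promoters (GRCh38.p14, 250 bases before to 50 bases after a transcript start) were found for 8 of the 10 genes with 13 starts in all, and SOX10 and PMEL had no entry. The E-box core CATGTG, or its reverse complement CACATG on the same strand, was present 2 times in the promoters of TYR and TYRP1 and in the downstream of the 2 DCT promoters, while the upstream DCT promoter held none. It was found at least once in 11.1% of all 35116 promoters of this length, and 2 or more times in 1.46%. Printed below are the 250 bases before the start, 5′ to 3′ on the strand of the gene, with these cores in capitals, because these 3 promoters of pigment enzymes each hold 2 cores:
TYR, chr11:89177625-89177874, plus strand: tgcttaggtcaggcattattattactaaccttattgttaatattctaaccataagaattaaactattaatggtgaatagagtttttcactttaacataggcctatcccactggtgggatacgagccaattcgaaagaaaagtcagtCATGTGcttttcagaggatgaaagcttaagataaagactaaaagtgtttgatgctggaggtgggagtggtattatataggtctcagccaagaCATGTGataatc
TYRP1, chr9:12693135-12693384, plus strand: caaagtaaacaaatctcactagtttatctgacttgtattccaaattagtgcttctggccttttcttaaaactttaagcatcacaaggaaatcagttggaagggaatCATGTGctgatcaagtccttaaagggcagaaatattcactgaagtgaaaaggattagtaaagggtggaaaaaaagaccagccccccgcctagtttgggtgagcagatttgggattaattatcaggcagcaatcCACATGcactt
DCT, chr13:94479683-94479932, minus strand: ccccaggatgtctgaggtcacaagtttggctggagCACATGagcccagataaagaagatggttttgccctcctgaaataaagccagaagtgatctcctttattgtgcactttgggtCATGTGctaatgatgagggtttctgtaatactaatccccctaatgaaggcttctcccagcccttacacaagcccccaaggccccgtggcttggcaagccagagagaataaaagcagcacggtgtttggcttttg

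The cores of TYR began 104 and 12 bases before the start, those of TYRP1 144 and 11 bases, and those of DCT 215 and 134 bases before the downstream of its 2 starts. EDNRB held 1 such core, 151 bases before the upstream of its 2 starts. The related core CACGTG was in none of the 13 promoters, against 7.26% of all promoters. The SOX core ACAAAG or CTTTGT was in 1 of the MITF promoters, and the AP-2 core, GCC and GGC 3 bases apart, in 1 of the EDNRB promoters, against 16.1% and 23.2% of all promoters. PAX3, TFAP2A and MLANA held none of these letters.

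MITF has 3 starts in this table, and the most downstream lies at the first exon of the melanocyte isoform. This start carries a cyclic AMP response element, TGACGTCA, 152 bases before it, a sequence found in 1.85% of all promoters and looked for after this promoter had been read. It is shown with the element in capitals, as the entry point of cyclic AMP signals into the lineage:
MITF, chr3:69936342-69936591, plus strand: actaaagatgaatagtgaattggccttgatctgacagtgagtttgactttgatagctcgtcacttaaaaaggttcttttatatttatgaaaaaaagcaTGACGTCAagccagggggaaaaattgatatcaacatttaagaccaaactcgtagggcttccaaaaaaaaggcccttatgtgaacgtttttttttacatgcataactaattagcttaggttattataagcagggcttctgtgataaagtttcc

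A match is a description of letters and not of binding. The tables count reads per gene and do not divide them among the 20 annotated MITF transcripts, so the share of the melanocyte isoform is unknown here.

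The 4 expressed lineage genes were the only members that passed the filter on low counts, and each of them was lower in shNFKBIZ cells at an adjusted P of at most 0.05. Of all 13843 genes tested, 65.3% differed at this threshold and 32.8% were lower, so a difference of this kind was common in these cells. None of the 4 reached a 2-fold change, which 8.96% of the genes tested did together with the P limit. PAX3 had the largest estimated decrease of the 4 and EDNRB the smallest, while the intervals of MITF overlapped those of PAX3, TFAP2A and EDNRB. The libraries of the groups did not overlap in TMM-scaled CPM for PAX3, TFAP2A and MITF, as was so for 68.6% of all genes tested, and they overlapped for EDNRB. TPM values are relative to the total of each library and fold changes to the TMM-scaled total, so they can differ slightly. Fewer cells with a transcript and less of it per cell cannot be told apart.

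PAX3 (ENSG00000135903, chromosome 2, 222199887 to 222298998, minus strand) encodes the paired box factor that acts upstream of MITF. Control libraries held 877, 908 and 789 of its exon reads, and shNFKBIZ libraries 458, 442 and 408. In TPM this was 17.8, 17.8 and 17.2 against 9.85, 9.68 and 8.64. Every shNFKBIZ library lay below every shCtrl library. The log2 fold change was -0.99 (SE 0.0605, 95% interval -1.12 to -0.86, adjusted P 3.75e-12, edgeR), which is 1.99-fold lower and directly at the 2-fold limit. Without shCtrl replicate 3 (-1.02) or shNFKBIZ replicate 1 (-1.03) PAX3 passed that limit.

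TFAP2A (ENSG00000137203, chromosome 6, 10393186 to 10419659, minus strand) was the most abundant of the lineage genes per length. It was at 25.8, 26.8 and 25.8 TPM in shCtrl and at 16.8, 17.6 and 15.5 TPM in shNFKBIZ libraries, with no overlap. The log2 fold change was -0.74 (SE 0.0513, 95% interval -0.84 to -0.63, adjusted P 3.39e-11, edgeR), a fall of 1.67-fold. The antisense genes TFAP2A-AS1 and TFAP2A-AS2, which overlap it, had 98 and 38 summed exon reads in shCtrl, against 3960 for TFAP2A.

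MITF (ENSG00000187098, chromosome 3, 69739456 to 69968336, plus strand) was expressed at a low level, with exon counts of 165, 135 and 138 for shCtrl against 94, 90 and 76 for shNFKBIZ libraries. This was 3.58, 2.83 and 3.23 TPM against 2.16, 2.11 and 1.72 TPM, where the median gene tested was at 17.1 TPM. The groups did not overlap. The log2 fold change was -0.77 (SE 0.131, 95% interval -1.04 to -0.49, adjusted P 2.55e-05, edgeR). Over 15 alternative settings it ranged from -0.96 to -0.68 and kept an adjusted P of at most 0.05.

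EDNRB (ENSG00000136160, chromosome 13, 77895481 to 77975529, minus strand) was at 4.90, 4.72 and 4.36 TPM in shCtrl and at 3.62, 3.50 and 4.56 TPM in shNFKBIZ libraries. The third shNFKBIZ library lay within the shCtrl range. The log2 fold change was -0.34 (SE 0.120, 95% interval -0.59 to -0.09, adjusted P 0.0168, edgeR). This call was lost in 6 of the 15 alternatives, among them library size alone (-0.25, adjusted P 0.0694, edgeR), DESeq2 (-0.34, adjusted P 0.0705) and the fit without shNFKBIZ replicate 2 (-0.26, adjusted P 0.0840, edgeR). Without shNFKBIZ replicate 3 the log2 fold change was -0.48, and over the alternatives the adjusted P ranged up to 0.183.

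**Figure D2:**
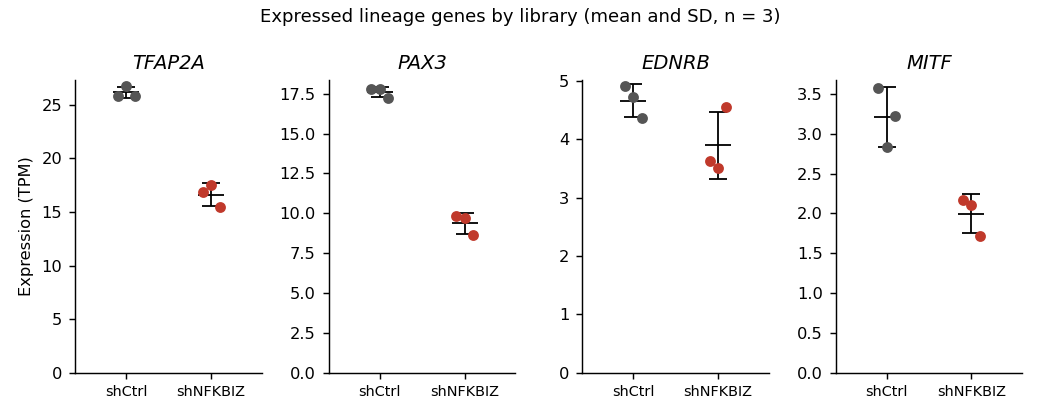
Expression in TPM (y axis, from 0, with its own scale in each panel) of TFAP2A, PAX3, EDNRB and MITF in shCtrl and shNFKBIZ libraries, with points for libraries and bars for mean and SD (n = 3). The groups are separate for TFAP2A, PAX3 and MITF, while 1 EDNRB library of shNFKBIZ cells at 4.56 TPM lies among those of shCtrl.

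The order of the levels per length was TFAP2A, PAX3, EDNRB and MITF in each group, and it held in every library. To ask whether the genes moved by unequal amounts, the ratio of 2 genes was taken within each library, which removes the scaling. The PAX3 to TFAP2A ratio was 0.665 to 0.687 in shCtrl and 0.551 to 0.585 in shNFKBIZ libraries, and the ranges did not overlap. The PAX3 to EDNRB ratio (3.62 to 3.95 against 1.90 to 2.76) and the TFAP2A to EDNRB ratio (5.27 to 5.93 against 3.39 to 5.01) were separate as well. For MITF the ratios overlapped with each of the other genes. With 3 against 3 libraries the smallest two-sided P of the exact permutation test is 0.1, which these 3 ratios had, and after adjustment over the 6 pairs it was 0.2, so that this test cannot decide whether any ratio differed. In the edgeR fit of exon reads the 95% intervals of the fold changes of PAX3, TFAP2A and EDNRB did not overlap each other. Under several alternatives some of them did. With DESeq2 the interval of TFAP2A (-0.87 to -0.61) overlapped those of PAX3 (-1.15 to -0.83) and EDNRB (-0.669 to -0.0121). With gene reads the intervals of PAX3 (-1.01 to -0.796) and TFAP2A (-0.834 to -0.627) overlapped.

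Intron reads come mostly from unspliced RNA and give a second reading of the same genes. PAX3 intron reads were lower, at 345, 345 and 310 in shCtrl against 212, 190 and 236 in shNFKBIZ libraries (log2 fold change -0.74, SE 0.0876, adjusted P 1.13e-08, edgeR on intron reads). TFAP2A intron reads fell as well, with 209, 199 and 185 against 145, 135 and 119 (log2 fold change -0.66, SE 0.104, adjusted P 2.73e-06, edgeR). Those of MITF were few, with 12, 17 and 14 against 3, 7 and 8, and fell too (log2 fold change -1.33, SE 0.397, adjusted P 0.00736, edgeR). Of the genes tested on intron reads 38.8% passed the same threshold.

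EDNRB had only 25 and 29 summed intron reads, and no difference was detectable (log2 fold change 0.12, 95% interval -0.77 to 1.01, adjusted P 0.854, edgeR). PMEL, too low for the fit of exon reads, was tested on intron reads, with 11, 10 and 11 reads against 8, 11 and 6. Its log2 fold change was -0.44 (95% interval -1.22 to 0.34, adjusted P 0.387, edgeR). CDK2 overlaps PMEL on the opposite strand, and the source of these intron reads was not tested. The share of intron reads in all PAX3 gene reads was 28.0 ± 0.396% (SD, n = 3) in shCtrl and 32.8 ± 3.44% in shNFKBIZ libraries, without overlap (exact permutation test, P 0.1, the smallest possible, adjusted over 4 genes 0.4). For TFAP2A the shares were 13.0 ± 0.665% and 14.3 ± 0.825% and overlapped. Over all genes the share was also higher in shNFKBIZ libraries, at 7.63% to 8.15% against 7.16% to 7.46% in shCtrl. Whether the PAX3 share differed beyond this was not tested.

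**Figure D3:**
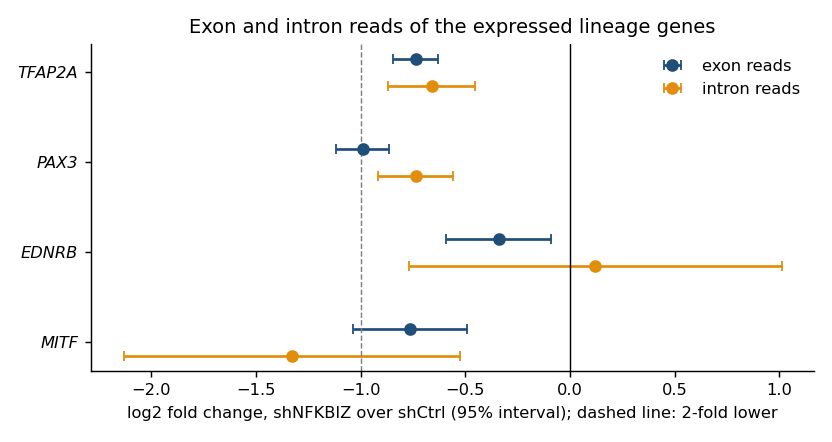
Log2 fold change of shNFKBIZ over shCtrl (x axis) with its 95% interval for exon and intron reads of the 4 expressed lineage genes (y axis), where the dashed line marks a 2-fold lower level. Exon and intron reads of TFAP2A, PAX3 and MITF all lie below 0, and the intron interval of EDNRB spans -0.77 to 1.01.

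Relatives of the lineage factors were then compared together with transcription factors of other families, among them FOXD3 and ETS1. This mixed list held 23 genes in all, of which 15 were tested. Of these 4 rose, 8 fell and 3 did not pass the test, with a median log2 fold change of -0.22 against 0.00431 over all genes tested. Thus 80% of those tested passed, against 65.3% of all genes tested, of which 32.8% were lower. In the MITF family TFE3, a lysosomal and nutrient-responsive factor, was far more abundant than MITF, at 61.8 ± 1.58 TPM (SD, n = 3) in shCtrl and 56.4 ± 3.32 TPM in shNFKBIZ cells, and it fell slightly (log2 fold change -0.22). TFEB fell from 1.15 ± 0.285 to 0.490 ± 0.166 TPM (log2 fold change -1.32, SE 0.266, adjusted P 0.000188, edgeR). TFEC rose, with 8, 7 and 6 reads in shCtrl and 14, 16 and 20 in shNFKBIZ libraries (log2 fold change 1.22, SE 0.343), and this call was lost with DESeq2.

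SOX10 and its closest relative SOX8 had 0 reads, while SOX9, the third gene of that subgroup, was expressed. SOX9, a neural crest and cartilage factor, rose from 22.4, 20.98 and 21.5 TPM in shCtrl to 57.0, 55.3 and 53.0 TPM in shNFKBIZ libraries. It was 2.41-fold higher (log2 fold change 1.27, SE 0.0540, adjusted P 7.58e-15, edgeR), opposite in direction to PAX3, TFAP2A and MITF. SOX2, a stem cell factor, fell from 2.88, 3.84 and 2.76 TPM to 1.36, 1.32 and 1.14 TPM (log2 fold change -1.40, SE 0.233, adjusted P 1.91e-05, edgeR). SOX4 fell from 77.3 ± 2.77 to 46.5 ± 1.61 TPM (log2 fold change -0.81).

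The AP-2 genes TFAP2B and TFAP2C had 0 reads in all libraries, and TFAP2A was the most abundant of the AP-2 genes examined. TFAP2E was at 1.07 ± 0.174 and 1.10 ± 0.257 TPM (log2 fold change -0.05, 95% interval -0.57 to 0.48). PAX7, the closest relative of PAX3, had 0 reads. FOXD3, a neural crest factor, had 7, 12 and 9 reads in shCtrl and 3, 4 and 3 in shNFKBIZ libraries, a ratio of 0.376 (exact 95% interval 0.163 to 0.798, counting error only), and was too low to be tested. ETS1 was the most abundant factor of the list and fell from 311 ± 8.60 to 160 ± 2.67 TPM (log2 fold change -1.04, SE 0.0317).

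**Figure D4:**
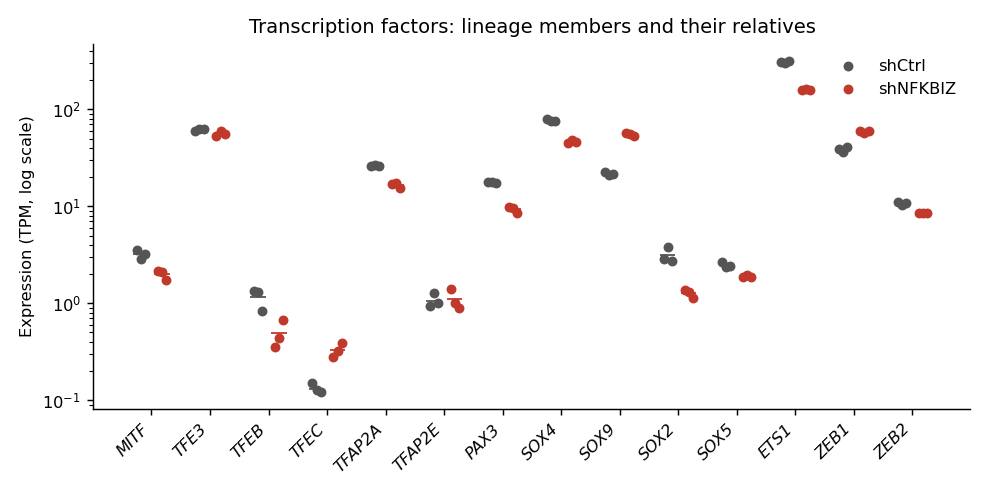
Expression in TPM (y axis, log scale) of the lineage transcription factors MITF, TFAP2A and PAX3 beside relatives and other neural crest factors (x axis) in 3 shCtrl and 3 shNFKBIZ libraries, with points for libraries and lines for means. MITF lies far below TFE3, and SOX9 is higher in shNFKBIZ libraries, at 53.0 TPM or more, where PAX3 and TFAP2A are lower.

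Other genes that are typical of pigment cells changed in both directions. Of 20 such genes 10 were expressed, 12 were tested, 2 rose, 4 fell and 6 did not pass the test, with a median log2 fold change of 0.05. Thus 50% of those tested passed, against 65.3% of all genes tested. None of the 12 reached a 2-fold change. The melanosomal transporter OCA2 rose from 2.03 ± 0.514 to 3.71 ± 0.302 TPM (log2 fold change 0.79, SE 0.191, adjusted P 0.000989, edgeR). SNAI2, a neural crest factor of the melanocyte lineage, was abundant and rose from 217 ± 14.4 to 268 ± 8.98 TPM (log2 fold change 0.22).

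MC1R, the melanocortin receptor that raises cyclic AMP, fell from 51.5 ± 2.15 to 41.3 ± 1.11 TPM (log2 fold change -0.40, SE 0.0465, adjusted P 1.37e-07, edgeR). QPCT (log2 fold change -0.53), MREG (-0.50) and RAB38 (-0.20) fell too, although RAB38 was no longer called in 9 of the 15 alternatives, with log2 fold changes between -0.21 and -0.11 in these. The receptor KIT, the transporter SLC45A2, the receptor GPR143 and IRF4 were at or under the floor of 3 summed reads per group, and TRPM1 and GPM6B had 0 reads. ERBB3, a receptor gene activated by SOX10 in the lineage, had 10, 8 and 6 reads in shCtrl and 1, 1 and 3 in shNFKBIZ libraries, a ratio of 0.220 (exact 95% interval 0.0654 to 0.587, counting error only). MLPH, which links melanosomes to their motor, differed in the other direction, with 1, 0 and 1 reads against 3, 2 and 5 and a ratio of 5.27 (exact 95% interval 1.12 to 49.5, counting error only). Both were too low to be tested.

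The machinery that builds and moves melanosomes and related organelles was expressed throughout. All 29 genes of this list were expressed and tested, and 11 rose, 11 fell and 7 did not pass the test (median log2 fold change -0.01). Thus 75.9% passed, against 65.3% of all genes tested. SYTL2, a RAB27 effector in vesicle transport, was the only gene of the list past the 2-fold limit and rose from 0.651 ± 0.145 to 3.37 ± 0.444 TPM (log2 fold change 2.30, SE 0.145, adjusted P 6.81e-12, edgeR). RAB32, which sorts enzymes to melanosomes, fell from 164 ± 4.14 to 117 ± 4.52 TPM (log2 fold change -0.57). The tetraspanin CD63 was the most abundant, at 627 ± 7.498 and 632 ± 15.8 TPM. It did not pass the test (log2 fold change -0.07, 95% interval -0.14 to -0.00360, adjusted P 0.0602, edgeR). AP1S1 rose (0.26).

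A list of 27 genes described as MITF targets in melanocytes or melanoma left out the pigment genes, which are in the lists above. There the other pigment cell genes had a median log2 fold change of 0.05 (2 rose, 4 fell and 6 did not pass the test). Of the 27 genes 21 were tested, and 6 rose, 13 fell and 2 did not pass the test (median log2 fold change -0.34). Of those tested 90.5% passed, against 65.3% of all genes tested, of which 32.8% were lower. Past the 2-fold limit were 8.96% of all genes tested, 1241 in number and 709 of them lower. The 4 genes of this list past that limit were all lower. Among them were SCD, a fatty acid desaturase (577 ± 1.56 to 124 ± 3.17 TPM, log2 fold change -2.30, SE 0.0336), the receptor MET (66.6 ± 1.27 to 27.9 ± 1.002 TPM, -1.33) and IVNS1ABP (-1.06). SLC7A5 fell (-0.55), and the DNA repair enzyme APEX1 rose (0.24), as did BCL2 (0.67) and LIG1 (0.71). BIRC7 and RRAGD had 0 reads. Many of these genes are also controlled by other factors, and the part of MITF in their changes was not tested.

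Of 27 genes that signal towards MITF or belong to the endothelin pathway, 21 were tested, and 4 rose, 8 fell and 9 did not pass the test (median log2 fold change -0.03). Thus 57.1% of those tested passed, against 65.3% of all genes tested. EDN3, the ligand of EDNRB in melanocyte development, had 0 reads and EDN2 had 2, while EDN1 rose from 8.62 ± 0.870 to 14.3 ± 0.755 TPM (log2 fold change 0.65, SE 0.111, adjusted P 2.4e-05, edgeR). ECE1, which cleaves the endothelin precursors, rose as well (0.30). PLCB4, a phospholipase downstream of endothelin receptors, was the only gene past the 2-fold limit and fell from 0.928 ± 0.0321 to 0.266 ± 0.0288 TPM (log2 fold change -1.88, SE 0.154). The melanocortin ligand POMC and its antagonist ASIP had 0 reads. Of the most abundant genes, the G protein GNAS was at 141.7 and 150.3 TPM (log2 fold change 0.00362, adjusted P 0.929, edgeR), and its sign turned in 4 of 15 alternatives, and CTNNB1 (-0.14) and PRKAR1A (-0.19) fell by small amounts.

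**Figure D5:**
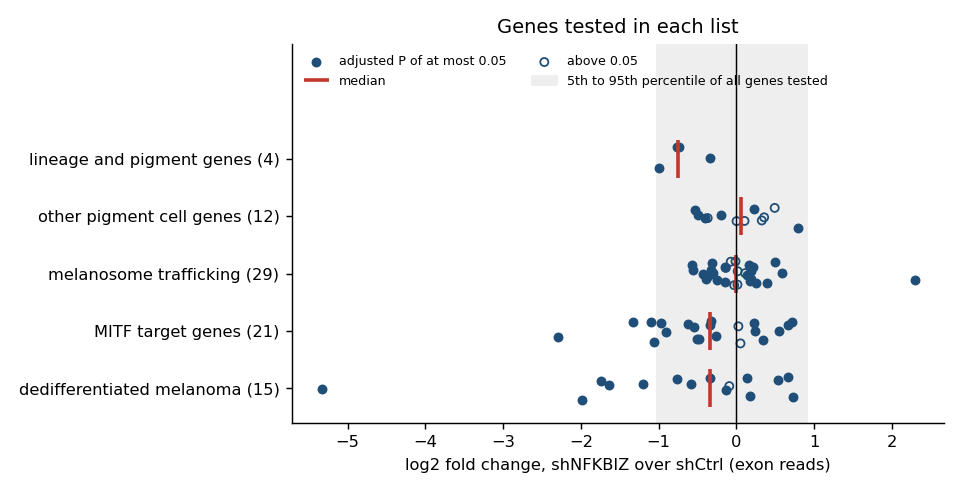
Log2 fold change of shNFKBIZ over shCtrl (x axis, exon reads) for the genes tested in 5 lists (y axis, number tested in parentheses), with filled points at an adjusted P of at most 0.05, open points above it and red lines for medians. The 4 lineage genes lie between -0.99 and -0.34, inside the grey band of the 5th to 95th percentile of all genes tested (-1.02 to 0.91), while the melanosome trafficking genes centre on -0.01.

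The label of the cells was checked against markers. Of 17 markers of the dedifferentiated state of melanoma 14 were expressed, with summed levels of 4892 to 5145 TPM in shCtrl and 4072 to 4219 TPM in shNFKBIZ libraries, against 51.0 to 52.7 and 30.4 to 33.4 TPM for the 10 lineage genes. The 20 other pigment cell genes summed to 346 to 385 TPM in shCtrl and 387 to 399.6 TPM in shNFKBIZ libraries, most of it from SNAI2. Of the 15 dedifferentiated markers tested, 5 rose, 9 fell and 1 did not pass the test (median log2 fold change -0.34). Thus 93.3% of these markers passed, against 65.3% of all genes tested, of which 32.8% were lower. The receptor AXL was at 407 ± 24.2 and 486 ± 3.78 TPM and rose (0.17), and FOSL1 rose (0.73). CCN1 (-1.63), CCN2 (-1.74), PDGFRB (-1.98) and IL6 (-5.33) fell, and the neural crest receptor NGFR had 4 and 2 summed reads. Changes thus ran in both directions within this list too.

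Of 10 general melanoma and neural crest markers 7 were expressed. VIM (3131 ± 73.8 TPM in shCtrl), ALCAM (log2 fold change -0.15) and the melanoma proteoglycan CSPG4 (-0.82) were high or moderate and fell, CD44 rose (0.27), and L1CAM rose from 0.269 ± 0.00840 to 1.55 ± 0.132 TPM (2.43). S100B had 0 reads. Among 6 leukocyte markers CD3E had 0 reads and PTPRC 1 and 2 summed reads, while the lysosomal gene CD68, which is not confined to leukocytes, rose from 98.5 ± 1.68 to 198 ± 0.695 TPM and made up nearly all of the summed level (96.7 to 99.9 TPM in shCtrl, 198 to 199.6 TPM in shNFKBIZ). LYZ and ITGAM had at most 10 summed reads per group.

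Among 7 fibroblast and endothelial markers the summed level was 32.1 to 34.7 TPM in shCtrl and 19.2 to 21.7 TPM in shNFKBIZ libraries. COL1A1 fell from 31.0 to 8.85 TPM (-1.89) and PDGFRA rose from 2.65 to 11.6 TPM (2.06), while the other genes of the list, DCN, LUM, PECAM1, VWF and CDH5, had at most 7 summed reads per group. The 6 keratinocyte and epithelial markers summed to at most 1.10 TPM in shCtrl and 1.88 TPM in shNFKBIZ libraries. KRT14 rose (1.37), with 24 and 63 summed reads, and EPCAM and DSG3 had at most 9. In each of these 3 lists at least 1 gene was thus expressed and changed, and its part in the results on the lineage genes was not tested.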

How the data were processed

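RNA of 6 LOX-IMVI libraries was sequenced, and the authors mapped the reads to hg38 (GRCh38.109) in CLC Genomics Workbench under default settings, with up to 10 hits for a read and both strands counted. The deposited tables, 1 per library, give raw counts of exon, intron and junction reads for each gene, unpooled. TPM was recomputed from exon counts and exon length, since the deposited values use a decimal comma, and differed from them by at most 4.98e-07. Coordinates come from these tables (hg38).

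The 10 genes and all gene lists were chosen with earlier results of these data known. Total exon reads were filtered with filterByExpr, which left 13843 genes, scaled with TMM and fitted in edgeR 4.0.16 (R 4.3.3, robust quasi-likelihood, two-sided), with P adjusted after Benjamini-Hochberg over all genes. An adjusted P up to 0.05 counted as passed, and a 2-fold limit was stated separately. Intron reads were fitted alike (12119 genes). The fit was also run on simulated counts with few changed genes, balanced in direction. As most genes differed here, that run does not test the scaling of these data. Standard errors are the log2 fold change divided by the square root of F. Intervals on summed reads are exact and cover counting error only. Beside the members and NFKBIZ, the genes named are the 4 largest changes past the 2-fold limit and the 3 most abundant genes of each list, of which some are not reported here. Of the other genes, the markers and absent genes, and OCA2, QPCT, MREG, AXL, EDN1, ECE1, BCL2, LIG1, CSPG4, TFAP2E, MLPH, ERBB3 and FOXD3, were picked after their values were seen. So were the comparisons of ratios and intron shares. Alternatives were RLE factors, library size alone, no filter, 10 reads in every library, DESeq2 1.42.0, unique, gene or junction reads, a replicate block and leaving out each library. Depth was 22264473 to 24624839 exon reads per library. Within groups no libraries were duplicates, with chi-square values of 1.71 to 4.42 per degree of freedom.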

Additional observations from a re-analysis of the deposited data

How the results depend on the processing

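MITF, PAX3 and TFAP2A were lower at an adjusted P of at most 0.05 under all 15 alternatives, as was NFKBIZ (log2 fold change -1.94 to -1.66), and EDNRB under 9. The number of lineage genes past the 2-fold limit, 0 otherwise, ranged from 0 to 1 when single libraries were left out, PAX3 being the gene, without shCtrl replicate 3 or without shNFKBIZ replicate 1. With a limit of 5 TPM, 2 lineage genes were expressed. With junction reads, which are fewer, 700 genes were past the threshold in place of 1241. The numbers that passed the test then were 2 for the other pigment cell genes and 6 for the upstream signals. For the mixed list of lineage factor relatives and other factors the number was 4, and for the keratinocyte list 0. That last number was also 0 with 10 reads in every library, a filter that removes KRT14. Without a filter 1740 genes were past the threshold.

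With library size alone the median of all genes moved to 0.0937, and 53.4% of the genes past the threshold were higher, against 42.9% with TMM. CD63 then turned to 0.0179. GNAS turned to -0.00424 without a filter, -0.000265 with gene reads, and lay between -0.0142 (without shCtrl replicate 3) and 0.0188 (without shCtrl replicate 1) when single libraries were left out, with -0.00497 without shNFKBIZ replicate 1. Of 634 values of 43 single genes under alternatives, 605 kept direction and call, 20 lost the call and 4 gained it. The cause was not tested.

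Replicate numbers were not taken as pairs: the correlations of deviations between libraries of equal number were 0.0338, 0.0899 and 0.0327, although each shCtrl library correlated best with its own number. A replicate block left 4 lineage genes passing on exon reads and 3 on intron reads, as without it, and 1244 genes past the threshold. At this depth the low counts of PMEL, TYRP1 and DCT leave wide intervals.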
